A study of Mus musculus with 6 samples.

Results

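Messenger RNA of 33 genes of the tricarboxylic acid (TCA) cycle and of pyruvate entry into it was examined in RAW 264.7 cells, among 23282 gene entries measured. RAW 264.7 is a macrophage-like mouse line that can be turned into osteoclasts, the cells that resorb bone. The genes were chosen by symbol, as enzymes and carriers of the cycle and of the steps that feed it or draw from it, and each had 1 entry. All 6 samples came from day 5 of osteoclast differentiation: 3 had the treatment label CPN and 3 the label control, in a series titled for a 60 kDa chaperonin. The labels gave neither the source, dose nor time of addition of the chaperonin, nor the agent that drove differentiation. Whether each sample was a culture of its own is not stated, so the p-values below reflect only how these 6 samples vary, and that variation may be technical.

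Pyruvate made by glycolysis is carried into mitochondria and turned into acetyl-CoA by the pyruvate dehydrogenase complex, or into oxaloacetate by pyruvate carboxylase. The cycle then oxidises acetyl units and passes electrons to the respiratory chain, while its intermediates leave for the synthesis of lipids, amino acids and, in macrophages exposed to inflammatory stimuli, itaconate. Osteoclasts are rich in mitochondria.

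At day 5, 1 of the 33 genes passed the test between CPN and control cells. It was Fh1, which encodes fumarase, the enzyme that hydrates fumarate to malate, and it fell 1.75-fold. Of the other 32 genes none passed edgeR's quasi-likelihood test at an adjusted p of 0.05. At an unadjusted p under 0.05, 8 members were lower and 1 was higher in CPN cells, or 27.3% of the members, against 26.3% of all tested genes. Limma-voom and DESeq2 also passed Fh1 and no other member. Over all genes, limma-voom passed 936 higher and 738 lower of 11092, and DESeq2 1067 and 897 of 14630. By the edgeR test the share of members that passed was 3.03%, against 14.0% of the 11092 genes tested. Of these 11092, 7.62% were higher and 6.39% lower in CPN. Among the members 0 were higher and 1 was lower. Outside these 33 genes, the largest difference near the cycle was in Irg1, which encodes the enzyme that makes itaconate and was 145-fold higher in CPN cells.

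Library totals lay between 8267719 and 8423438 counts in CPN cells and between 7957228 and 9713938 counts in control cells. CPN 1 and control 3 had the most genes above 0 counts, 13079 and 12551, against 11874 to 11988 in the other libraries. They also had the lowest share of counts in the entry Rn45s, 9.038% and 11.24%, against 12.96% to 16.55%. A fit without this pair is given below. Levels are given as CPM, which is each count relative to the TMM-scaled library total, and 3 counts in a library correspond to between 0.2943 and 0.3929 CPM. The summed level of 10 osteoclast markers lay between 1080 and 1682 CPM in CPN cells and between 3915 and 4079 CPM in control cells, and of the 8 tested 7 were lower and 1 was higher in CPN. The 7 macrophage markers summed to between 2078 and 2698 CPM in CPN cells and to between 1702 and 2216 CPM in control cells, with Mertk at 0 in every library, and 3 of the 6 tested were higher in CPN. Of the 4 proliferation markers all 4 were lower in CPN, at between 131 and 171 CPM in sum, against between 458 and 740 CPM in control. Granulocyte markers (4 of 5 listed had an entry, with Elane at 0 in every library) summed to between 18.0 and 34.6 CPM in CPN and to at most 0.117 CPM in control, and 5 stromal markers to between 12.2 and 18.7 CPM in CPN and at most 4.67 CPM in control. In each of these lists 1 gene could be tested, and it was higher in CPN. The 4 lymphoid markers were at 0 in CPN and at most 0.785 CPM in control in sum, with Ms4a1 and Nkg7 at 0 in every library. The part of these markers in the results below was not tested. In bulk RNA, fewer cells of a type and less RNA per cell cannot be told apart.

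Control 2 was the control least like the others. Across tested genes its log2 CPM correlated at 0.894 with control 1 and 0.916 with control 3, against 0.942 between those 2 libraries. The CPN libraries correlated with each other at 0.933, 0.926 and 0.906, so control 2 lay close to the spread within CPN. These values are a description across genes that share a library. Control 2 had the lowest CPM of the 3 controls for 20 of the 33 genes (60.6%), against 38.5% of all tested genes. It had the highest for 9 of the 33 (27.3%), against 38.4% of all tested genes. Results are therefore also given without it.

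Promoter windows of 2 members are shown, from RefSeq on build GRCm38.p6, each from 250 bases before to 50 bases after the gene's start. Fh1 is the gene that passed. Got1, which encodes the cytosolic aspartate aminotransferase, is shown as an example of a member that passed without control 2 and not with it, as the 1 member whose window holds the ATF4 core. Capitals mark an exact match, on either strand, to TGATGNAA, a core that ATF4, the transcription factor of the integrated stress response, can bind. The windows lie on the minus strand at chr1:175625586-175625885 for Fh1 and at chr19:43524556-43524855 for Got1.
Fh1: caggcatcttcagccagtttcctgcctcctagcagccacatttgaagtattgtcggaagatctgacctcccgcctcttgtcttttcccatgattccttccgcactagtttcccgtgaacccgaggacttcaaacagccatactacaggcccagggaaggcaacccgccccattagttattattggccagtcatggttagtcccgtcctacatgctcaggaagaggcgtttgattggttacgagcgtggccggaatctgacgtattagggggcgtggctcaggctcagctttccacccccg
Got1: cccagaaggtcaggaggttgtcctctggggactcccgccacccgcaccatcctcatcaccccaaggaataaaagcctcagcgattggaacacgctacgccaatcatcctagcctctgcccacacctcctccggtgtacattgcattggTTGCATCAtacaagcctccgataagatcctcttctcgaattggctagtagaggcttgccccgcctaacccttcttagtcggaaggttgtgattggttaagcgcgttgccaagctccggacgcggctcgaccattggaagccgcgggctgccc

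The tables held windows for 30 of the 33 genes. The ATF4 core was found in 1 of the 30 (3.33%), against 4.51% of all 27025 genes with a window and 2.83% of the 8482 of them that were tested. The core CCGGAAG of the mitochondrial gene regulator GABPA was found in 5 (16.7%, against 9.93% of all and 21.8% of tested genes). The E-box CACGTG was found in 4 (13.3%, against 8.09% of all and 12.3% of tested genes). The consensus elements of NRF1 and NF-kB and the ERR element TCAAGGTCA were in 0 of the 30 windows. For NRF1 the shares were 1.07% of all and 2.5% of tested genes. They were 0.174% and 0.236% for NF-kB, and 0.466% and 0.342% for ERR. Matches are exact letters on both strands, describe these windows alone, and may overlap.

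In sum the 33 genes were slightly lower in CPN cells. The summed level of all 33 was 3998, 3806 and 3896 CPM in CPN 1 to 3 and 4565, 4078 and 4593 CPM in control 1 to 3. All CPN sums were below all control sums, and the sum in control 2 was the nearest to them. Log2 fold changes were negative for 24 genes (72.7%, against 50.5% of all tested genes) and positive for 9. Their median was -0.21, with quartiles of -0.46 and 0.01, against a median of -0.0079 and quartiles of -0.42 and 0.41 over all tested genes. Scaling by library totals alone moved the median of all tested genes to -0.129 and that of the 33 genes to -0.32, and passed 3 members, Fh1, Idh3g and Slc25a1, all lower. With that scaling 14.5% of all tested genes passed, 6.22% higher and 8.24% lower.

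The precision of these comparisons was higher than for most genes. The median SE of a log2 fold change was 0.215 over the 33 genes and 0.314 over all tested genes. For 24 genes (72.7%) the 95% interval of the log2 fold change lay wholly within a 2-fold change in either direction, against 38.6% of all tested genes. The other 9 were Fh1, Me2, Pcx, Pdhx, Pdp1, Pdk2, Slc25a1, Slc25a10 and Slc25a11. Of these, Pcx with 230 counts in all and Pdk2 with 88 were the 2 members under 500 counts.

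**Figure D1:**
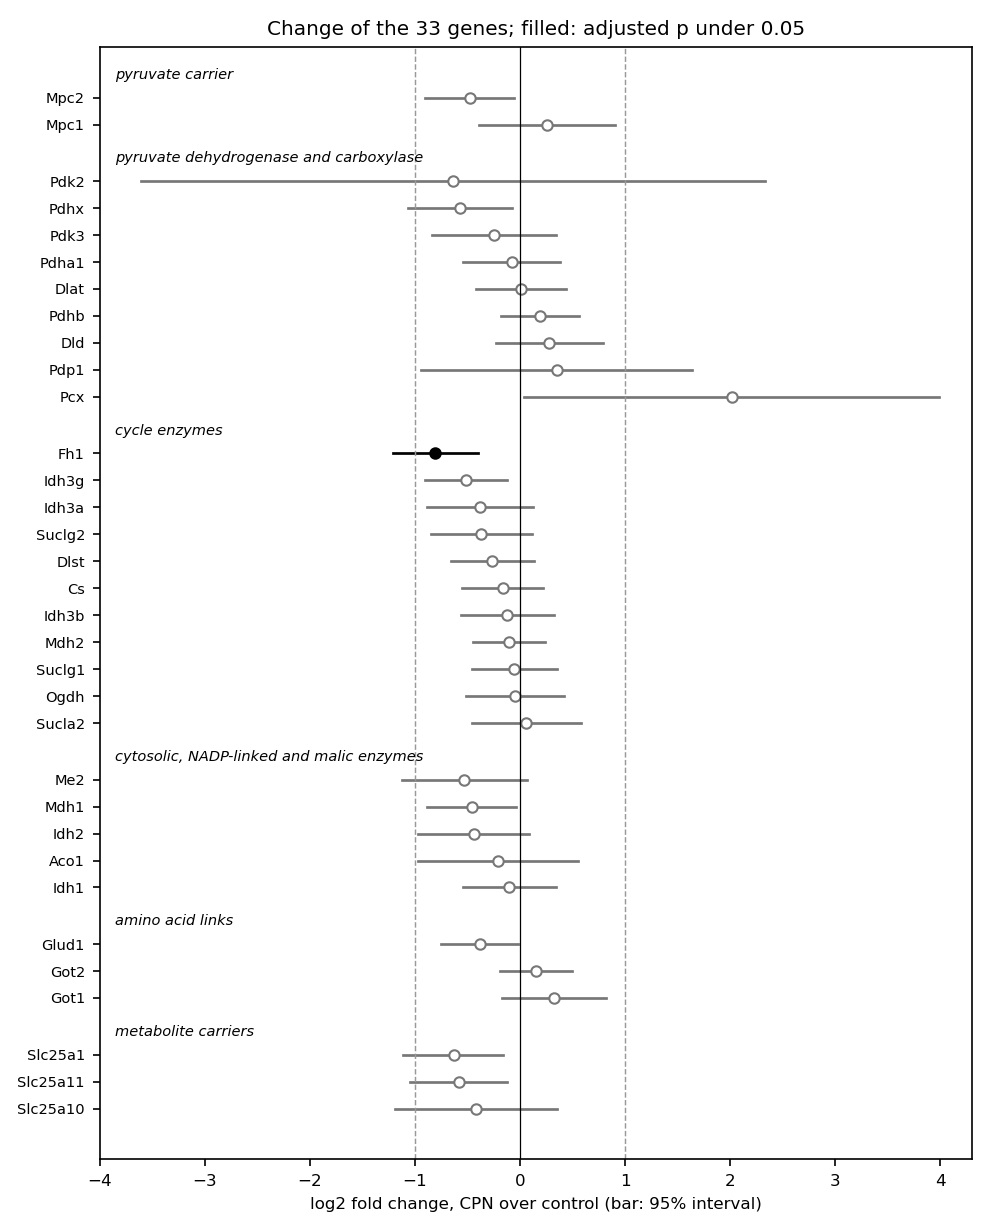
Log2 fold change of each gene, CPN over control, with its 95% interval, grouped by role; dashed lines mark a 2-fold change and the filled point passed an adjusted p of 0.05. Fh1 at -0.81 is the filled point, most intervals lie between the dashed lines, and Pdk2 and Pcx have the widest.

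The 3 CPN values lay wholly apart from the 3 control values in 7 genes, all lower in CPN: Fh1, Idh3g, Pdhx, Mpc2, Glud1, Slc25a1 and Slc25a11. That is 21.2% of the members, where 32.6% of all tested genes were apart in either direction and 15.7% in that one. No member lay wholly above control, where 16.9% of all tested genes did.

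**Figure D2:**
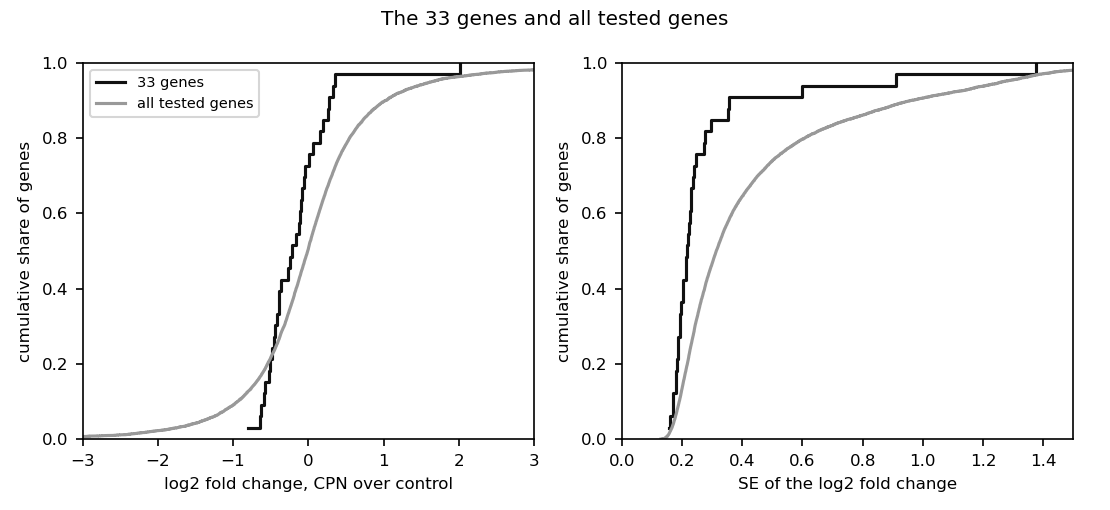
Cumulative share of genes by log2 fold change (left, CPN over control) and by its SE (right), for the 33 genes and all tested genes. The curve of the 33 genes is steeper and lies to the left, with medians of -0.21 and 0.215, against -0.0079 and 0.314.

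Among the 11 enzymes of the cycle itself, 1 fell and 10 did not pass. Fh1 lies on the minus strand of chromosome 1, from 175600374 to 175625635, and overlaps Kmo, a gene with 13 counts in all. It had 81.2, 67.5 and 90.3 CPM in CPN 1 to 3, against 148, 136 and 134 CPM in control 1 to 3. Every CPN value lay below every control value, and the spread within each group was small beside the gap. The log2 fold change was -0.81 ± 0.188 (SE, n = 3 per group, 95% interval -1.21 to -0.40, edgeR adjusted p = 0.0121). The call ended without control 1 (edgeR adjusted p = 0.0503) or without CPN 2 (0.0697), where the log2 fold change was -0.76 and -0.69. It also ended without control 3 and CPN 1 together (edgeR adjusted p = 0.122) and against a null fold of 1.5 (0.307). In each of these 4 settings 0 of the 33 genes passed. The share of all tested genes that passed was 8.68% without control 1 (5.06% higher and 3.62% lower) and 7.96% without CPN 2 (4.65% higher and 3.32% lower). It was 3.97% without control 3 and CPN 1 (2.43% higher and 1.54% lower) and 6.28% against a null fold of 1.5 (3.82% higher and 2.46% lower).

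NAD-linked isocitrate dehydrogenase, which makes 2-oxoglutarate from isocitrate, is built from 3 kinds of subunit. Idh3g, a regulatory subunit, had 136, 106 and 106 CPM in CPN cells, against 154, 175 and 164 CPM in control cells. Its groups were apart, but it did not pass (log2 fold change -0.51 ± 0.181, SE, n = 3 per group, edgeR adjusted p = 0.0853). With library totals alone it did (adjusted p = 0.0466). Idh3a, the catalytic subunit, had 110, 135 and 111 CPM in CPN cells, against 168, 102 and 193 CPM in control cells, where control 2 lay below all CPN values. Without control 2 its log2 fold change was -0.59, against -0.38 with it, and it then passed (edgeR adjusted p = 0.0381). Idh3b, the other regulatory subunit, had 142 ± 36.8 CPM in CPN cells and 154 ± 10.4 CPM in control cells (SD, n = 3), and these values overlapped.

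Citrate synthase, which condenses acetyl-CoA with oxaloacetate, had Cs levels of 226, 256 and 246 CPM in CPN cells, against 322, 218 and 276 CPM in control cells. The values interleaved, and the 95% interval of the log2 fold change ran from -0.55 to 0.22. For the 2-oxoglutarate dehydrogenase complex, Ogdh, its first enzyme, had 77.8 ± 14.8 CPM in CPN cells and 80.4 ± 11.7 CPM in control cells, with an interval of -0.51 to 0.42. Dlst, its second enzyme, had 118 ± 12.5 CPM in CPN cells and 141 ± 16.1 CPM in control cells, with an interval of -0.66 to 0.13. Neither gene passed (edgeR adjusted p = 0.926 and 0.403).

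Succinyl-CoA ligase makes succinate and a nucleoside triphosphate, and its beta subunit sets whether GTP (Suclg2) or ATP (Sucla2) is made. Suclg2 had 84.8, 53.2 and 64.1 CPM in CPN cells, against 76.5, 86.6 and 97.6 CPM in control cells. Sucla2 had 52.4, 57.1 and 91.2 CPM in CPN cells, against 62.0, 62.4 and 68.1 CPM in control cells. In both genes 1 CPN library lay within or above the control range, and neither passed (edgeR adjusted p = 0.336 and 0.912). Suclg1, the shared alpha subunit, had 156 ± 18.4 CPM in CPN cells and 162 ± 25.9 CPM in control cells. Mdh2, the mitochondrial malate dehydrogenase that closes the cycle, had 520 ± 72.8 CPM in CPN cells and 559 ± 35.9 CPM in control cells, with an interval of -0.45 to 0.24.

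**Figure D3:**
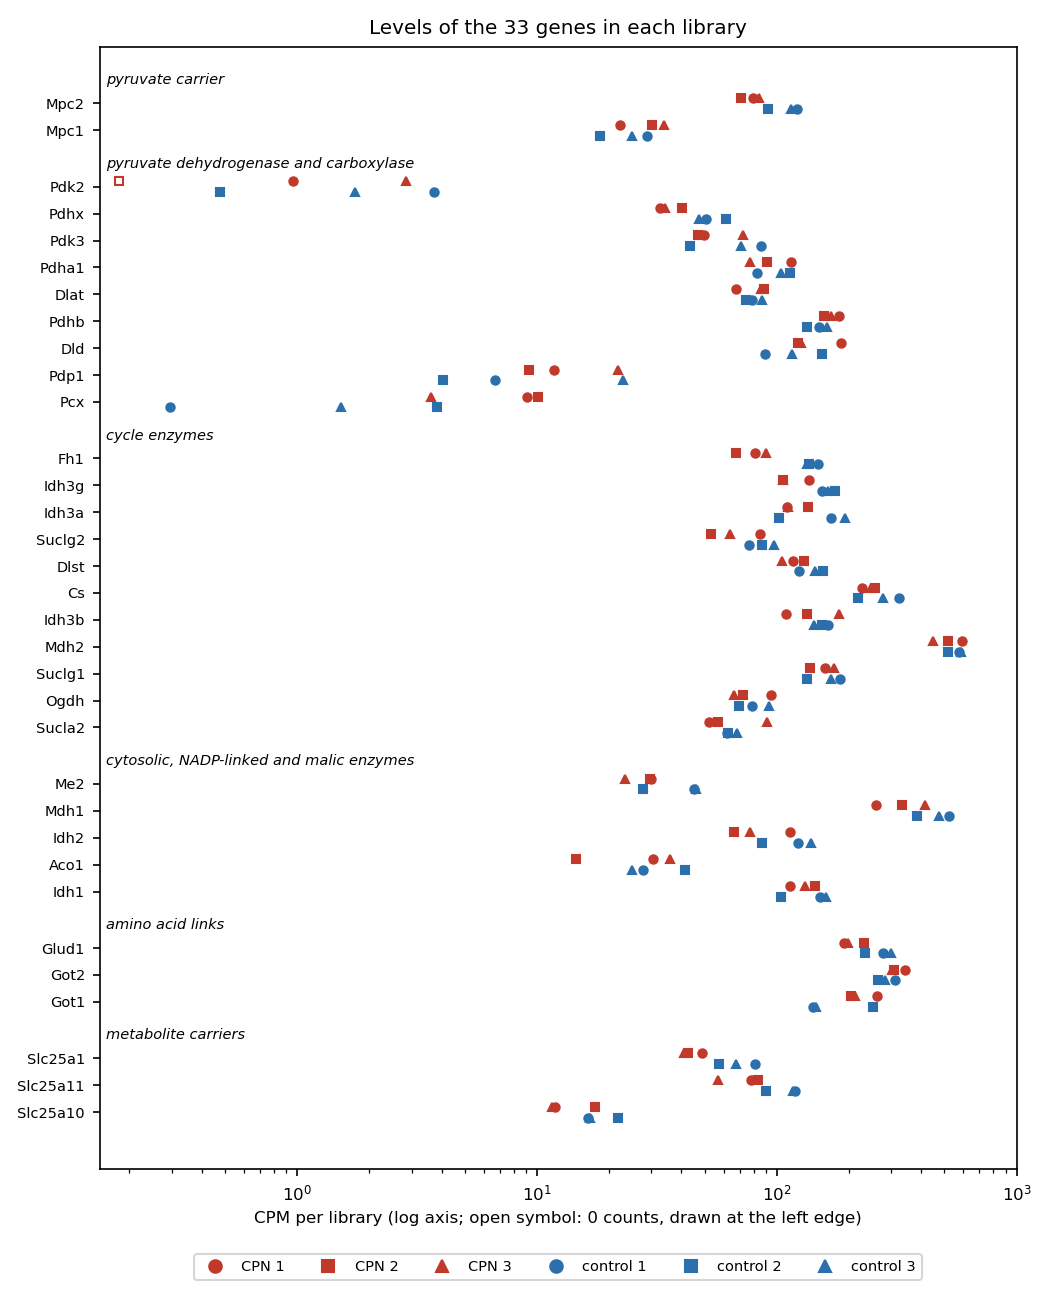
CPM of each gene in each library on a log axis, CPN in red above control in blue for every gene, with the replicate number as the symbol; the open symbol is CPN 2 of Pdk2, with 0 counts. The groups are apart for 7 genes, Fh1 among them, and control 2 (blue square) lies among or below the CPN values in several rows, such as Idh3a and Me2.

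None of the pyruvate entry genes passed in either direction. Mpc1 and Mpc2 encode the subunits of the mitochondrial pyruvate carrier, which work as a pair. Mpc2 had 79.3, 71.1 and 84.6 CPM in CPN cells, against 121, 92.0 and 115 CPM in control cells, and the groups were apart (log2 fold change -0.48 ± 0.194, SE, n = 3 per group, edgeR adjusted p = 0.131). Mpc1 had 22.2, 30.3 and 33.9 CPM in CPN cells, against 28.8, 18.4 and 24.9 CPM in control cells, and these overlapped. The log2 ratio of Mpc1 to Mpc2 counts within a library, which needs no scaling, was -1.46 ± 0.33 in CPN cells and -2.20 ± 0.13 in control cells (SD, n = 3). All CPN ratios were above all control ratios, a difference of 0.73 (two-sided exact permutation test, p = 0.1, the smallest that 3 against 3 samples allows; 0.56 adjusted over 7 ratios). This was the 1 ratio of 7 whose groups were apart.

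In the pyruvate dehydrogenase complex, which makes acetyl-CoA, levels of the catalytic subunits were close in both groups. Pdha1 and Pdhb, the subunits of the first enzyme, had 94.5 ± 18.9 and 170 ± 11.9 CPM in CPN cells, against 99.9 ± 15.4 and 149 ± 14.0 CPM in control cells (SD, n = 3). Dlat, the second enzyme, had 80.7 ± 11.3 CPM in CPN cells and 80.1 ± 5.94 CPM in control cells, with a 95% interval of the log2 fold change of -0.42 to 0.44. Dld, the third enzyme, which the 2-oxoglutarate complex shares, had 186, 123 and 126 CPM in CPN cells, against 89.5, 154 and 116 CPM in control cells, and these overlapped. Pdhx, which holds the third enzyme in the complex, had 32.5, 40.2 and 34.2 CPM in CPN cells, against 50.8, 61.3 and 47.2 CPM in control cells. Pdhx was thus the subunit whose groups were apart, but it did not pass (log2 fold change -0.57 ± 0.228, edgeR adjusted p = 0.123).

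Kinases switch the complex off by phosphorylation and phosphatases switch it on. Of the kinases, Pdk3 had 49.9, 46.9 and 72.2 CPM in CPN cells, against 85.9, 43.6 and 71.1 CPM in control cells. Pdk2 was near the detection limit, with 8, 0 and 23 counts in CPN 1 to 3 and 38, 4 and 15 counts in control 1 to 3, and its interval of -3.61 to 2.33 allows large changes in either direction. Pdp1, a phosphatase, had 11.8, 9.30 and 21.8 CPM in CPN cells, against 6.67, 4.07 and 22.9 CPM in control cells, where control 3 was the highest of all libraries. None of the 3 passed (edgeR adjusted p = 0.634 for Pdk3, 0.828 for Pdk2 and 0.778 for Pdp1).

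Pcx, pyruvate carboxylase, had the largest fitted log2 fold change of the 33 genes in size, 2.02 ± 0.911, and did not pass (edgeR adjusted p = 0.179). It had 76, 77 and 29 counts in CPN 1 to 3, against 3, 32 and 13 counts in control 1 to 3, or 9.12, 10.1 and 3.60 CPM against 0.294, 3.83 and 1.52 CPM. CPN 3 lay just below control 2, so the groups overlapped by these libraries. Without control 2 the log2 fold change was 3.08 and passed (edgeR adjusted p = 0.0444), and without control 1 it did not (0.333). Pcx overlaps Lrfn4, a gene with 353 counts and itself not called (log2 fold change 0.32), on the opposite strand; whether the counting used strand is not stated.

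The enzymes with cytosolic or side roles gave 5 negative log2 fold changes and no call. Mdh1, the cytosolic malate dehydrogenase of the malate-aspartate shuttle, had 259, 333 and 413 CPM in CPN cells, against 520, 386 and 474 CPM in control cells. CPN 3 lay above control 2, and Mdh1 did not pass (log2 fold change -0.46 ± 0.194, SE, n = 3 per group, edgeR adjusted p = 0.149). Me2, a mitochondrial malic enzyme that turns malate into pyruvate, had 29.9, 29.6 and 23.2 CPM in CPN cells, against 45.0, 27.8 and 46.2 CPM in control cells, so control 2 lay among the CPN values. Idh2, the NADP-linked isocitrate dehydrogenase of mitochondria, had 85.4 ± 24.2 CPM in CPN cells and 116 ± 26.9 CPM in control cells. Idh1, its cytosolic counterpart, had 129 ± 15.2 CPM in CPN cells and 138 ± 30.2 CPM in control cells. Aco1, the cytosolic aconitase that also acts as an iron-responsive RNA-binding protein, had 30.5, 14.5 and 35.9 CPM in CPN cells, against 27.6, 41.6 and 24.8 CPM in control cells, with CPN 2 the lowest and control 2 the highest.

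The links to amino acids did not pass with all libraries. Got1 had 261, 203 and 212 CPM in CPN cells, against 142, 252 and 146 CPM in control cells. Control 2 lay within the CPN range, while both other controls lay below it. With control 2 the log2 fold change was 0.32 ± 0.228 (SE, edgeR adjusted p = 0.418), and without it 0.66 ± 0.183 (adjusted p = 0.0188). Got2, the mitochondrial aminotransferase, had 317 ± 20.6 CPM in CPN cells and 286 ± 22.8 CPM in control cells, with a 95% interval of -0.19 to 0.49. Glud1, glutamate dehydrogenase, which turns glutamate into 2-oxoglutarate, had 191, 231 and 199 CPM in CPN cells, against 277, 233 and 300 CPM in control cells. The highest CPN and the lowest control value of Glud1 nearly met, and it did not pass (log2 fold change -0.38 ± 0.17, edgeR adjusted p = 0.17).

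All 3 carriers that exchange cycle intermediates across the inner membrane had negative log2 fold changes, and 0 of them passed. Slc25a1, which exports citrate for lipid synthesis, had 49.0, 42.6 and 40.9 CPM in CPN cells, against 80.8, 57.3 and 67.4 CPM in control cells. The groups were apart, and Slc25a1 was the member nearest to the threshold from outside (log2 fold change -0.63 ± 0.218, SE, n = 3 per group, edgeR adjusted p = 0.075). Slc25a11, the 2-oxoglutarate carrier of the malate-aspartate shuttle, had 78.2, 83.3 and 56.6 CPM in CPN cells, against 119, 90.3 and 117 CPM in control cells, also apart (log2 fold change -0.58 ± 0.215, edgeR adjusted p = 0.096). Without control 2, Slc25a1 and Slc25a11 passed, at log2 fold changes of -0.73 and -0.68 (edgeR adjusted p = 0.0393 and 0.0388). Slc25a10, the dicarboxylate carrier, had 11.9, 17.4 and 11.5 CPM in CPN cells, against 16.3, 21.8 and 16.6 CPM in control cells, and these overlapped.

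Without control 2, 6 of the 33 genes passed: Pcx and Got1 were higher, and Fh1, Idh3a, Slc25a1 and Slc25a11 were lower in CPN. They are 2 higher and 4 lower genes of 33, where 17.0% of 11470 tested genes passed, 9.86% higher and 7.18% lower. Control 2 was singled out with these values known.

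**Figure D4:**
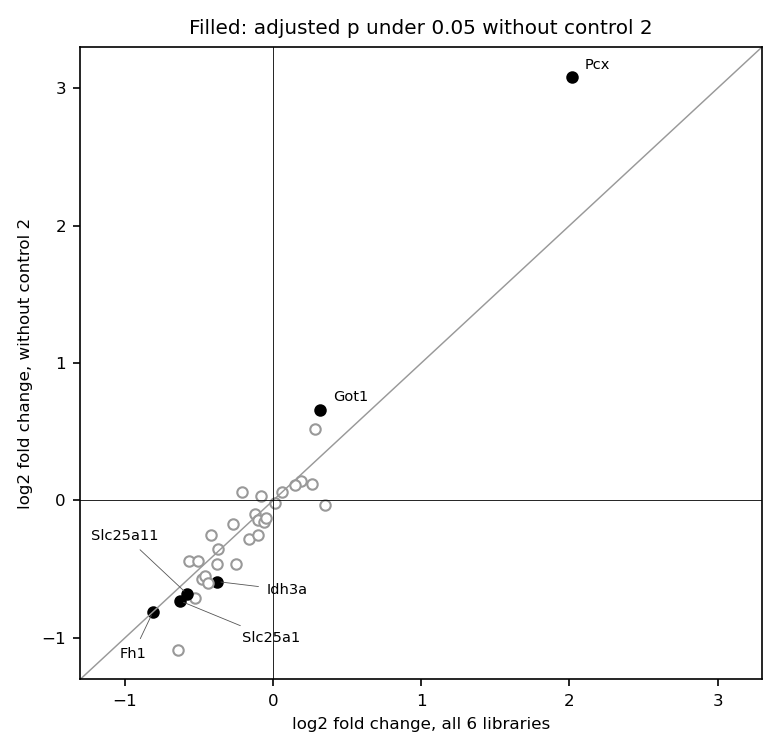
Log2 fold change (CPN over control) of each of the 33 genes with all 6 libraries on the horizontal axis and without control 2 on the vertical axis; the diagonal marks equal values. Named filled points passed without control 2, and Pcx at 2.02 and 3.08 and Got1 at 0.32 and 0.66 lie above the diagonal.

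Ratios between paralogues and paired regulators did not separate the groups, apart from that of the pyruvate carrier. The log2 ratio of Idh1 to Idh2 was 0.63 ± 0.56 in CPN cells and 0.26 ± 0.04 in control cells (SD, n = 3), and that of Mdh1 to Mdh2 was -0.65 ± 0.54 in CPN cells and -0.29 ± 0.14 in control cells. For Suclg2 to Sucla2 it was 0.03 ± 0.61 in CPN cells and 0.43 ± 0.11 in control cells. The 3 ratios varied more among CPN than among control libraries and did not separate the groups (two-sided exact permutation tests, p = 0.4 each, 0.56 adjusted over 7 ratios). Got1 to Got2 differed by 0.21, Pdp1 to Pdk3 by 0.86 and Pdk3 to Pdk2 by 1.20, with exact permutation p of 0.5, 0.4 and 0.6.

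Genes next to these steps were taken from 5 lists, and 43 entries of these lists are reported, of which 34 could be tested. By the same test 2 rose and 4 fell, where 7.62% of all tested genes were higher and 6.39% lower. The median log2 fold change over these 34 genes was -0.23, against -0.0079 over all tested genes. Complex II, or succinate dehydrogenase, links the cycle to the respiratory chain. Sdha, the catalytic subunit of succinate dehydrogenase, had 182 ± 23.0 CPM in CPN cells and 239 ± 9.82 CPM in control cells and did not pass (edgeR adjusted p = 0.151). Sdhd, a membrane anchor of that enzyme, had 113, 141 and 120 CPM in CPN cells, against 224, 96.2 and 195 CPM in control cells. Control 2 lay below all CPN values of Sdhd, which did not pass with all libraries (edgeR adjusted p = 0.305) and passed without control 2 (log2 fold change -0.73, adjusted p = 0.01).

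In the list of pyruvate dehydrogenase control and lipoylation, 1 of 6 tested genes fell. Pdk1, a hypoxia-inducible kinase that inhibits the complex, fell 3.23-fold, to 30.5, 38.9 and 44.5 CPM in CPN cells, against 139, 75.0 and 154 CPM in control cells (log2 fold change -1.69 ± 0.275, edgeR adjusted p = 0.00125). It kept its side of the threshold without any 1 library, and without control 2, its lowest control, the log2 fold change was -1.93. The phosphatase gene Pdp2 had 25.3, 8.78 and 7.32 CPM in CPN cells, against 28.2, 25.9 and 20.1 CPM in control cells, and did not pass (log2 fold change -0.84, edgeR adjusted p = 0.266). Its highest CPN value was in CPN 1, and without that library Pdp2 passed (log2 fold change -1.62, adjusted p = 0.0319). Lipt2, of lipoic acid synthesis, was low, at up to 5.87 CPM, and did not pass. Pdk4 had 0 counts in every library, which allows at most 3 counts per library at this depth and covers counting error only.

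For routes that feed or drain the cycle, 2 of 9 tested genes rose and 1 fell. Irg1, now named Acod1, had 3626, 1681 and 1837 counts in CPN 1 to 3, against 0, 22 and 31 counts in control 1 to 3 (log2 fold change 7.18 ± 0.651, edgeR adjusted p = 2.1e-05). It stood at 435, 220 and 228 CPM in CPN cells, against 0, 2.64 and 3.62 CPM in control cells, and its log2 fold change stayed between 6.55 and 7.89 when any 1 library was left out. Me1, the cytosolic malic enzyme that makes NADPH, rose 1.87-fold, to 70.4, 89.7 and 63.0 CPM in CPN cells, against 35.7, 52.6 and 31.0 CPM in control cells (edgeR adjusted p = 0.0301). Acly, which splits exported citrate into acetyl-CoA for lipid synthesis, fell 1.62-fold, to 105 ± 8.99 CPM in CPN cells, against 170 ± 39.7 CPM in control cells (edgeR adjusted p = 0.0394). Leaving out 1 library ended the call of Me1 in 4 of 6 fits (edgeR adjusted p up to 0.146), those without control 1, control 3, CPN 1 and CPN 2. For Acly it did so in 5 of 6 (up to 0.185), all but the fit without control 2.

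Among 8 tested mitochondrial carriers, 1 fell. Slc25a13, an aspartate-glutamate carrier of the malate-aspartate shuttle, had 50.8, 39.0 and 37.3 CPM in CPN cells, against 81.7, 57.7 and 91.5 CPM in control cells (log2 fold change -0.86 ± 0.239, edgeR adjusted p = 0.0293). The call was lost in 4 of 6 fits with 1 library left out, those lacking CPN 2, CPN 3, control 1 or control 3 (adjusted p between 0.0956 and 0.155). The ADP/ATP exchangers Slc25a4 and Slc25a5 had 183 ± 51.7 and 548 ± 101 CPM in CPN cells, against 267 ± 24.9 and 710 ± 161 CPM in control cells, and did not pass (edgeR adjusted p = 0.105 and 0.259). Slc25a4 passed without CPN 3 (log2 fold change -0.79, adjusted p = 0.0306) and Slc25a5 without control 2 (log2 fold change -0.53, adjusted p = 0.039). In lactate handling 1 of 4 fell. Ldha, the lactate dehydrogenase subunit that converts pyruvate to lactate, had 434, 426 and 481 CPM in CPN cells, against 917, 650 and 1006 CPM in control cells (log2 fold change -0.94 ± 0.178, edgeR adjusted p = 0.00358). The lactate and pyruvate transporter genes Slc16a7 and Slc16a1 had 2.93 ± 0.671 and 80.8 ± 11.1 CPM in CPN cells, against 7.46 ± 0.616 and 71.4 ± 35.1 CPM in control cells, and did not pass (edgeR adjusted p = 0.211 and 0.8).

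**Figure D5:**
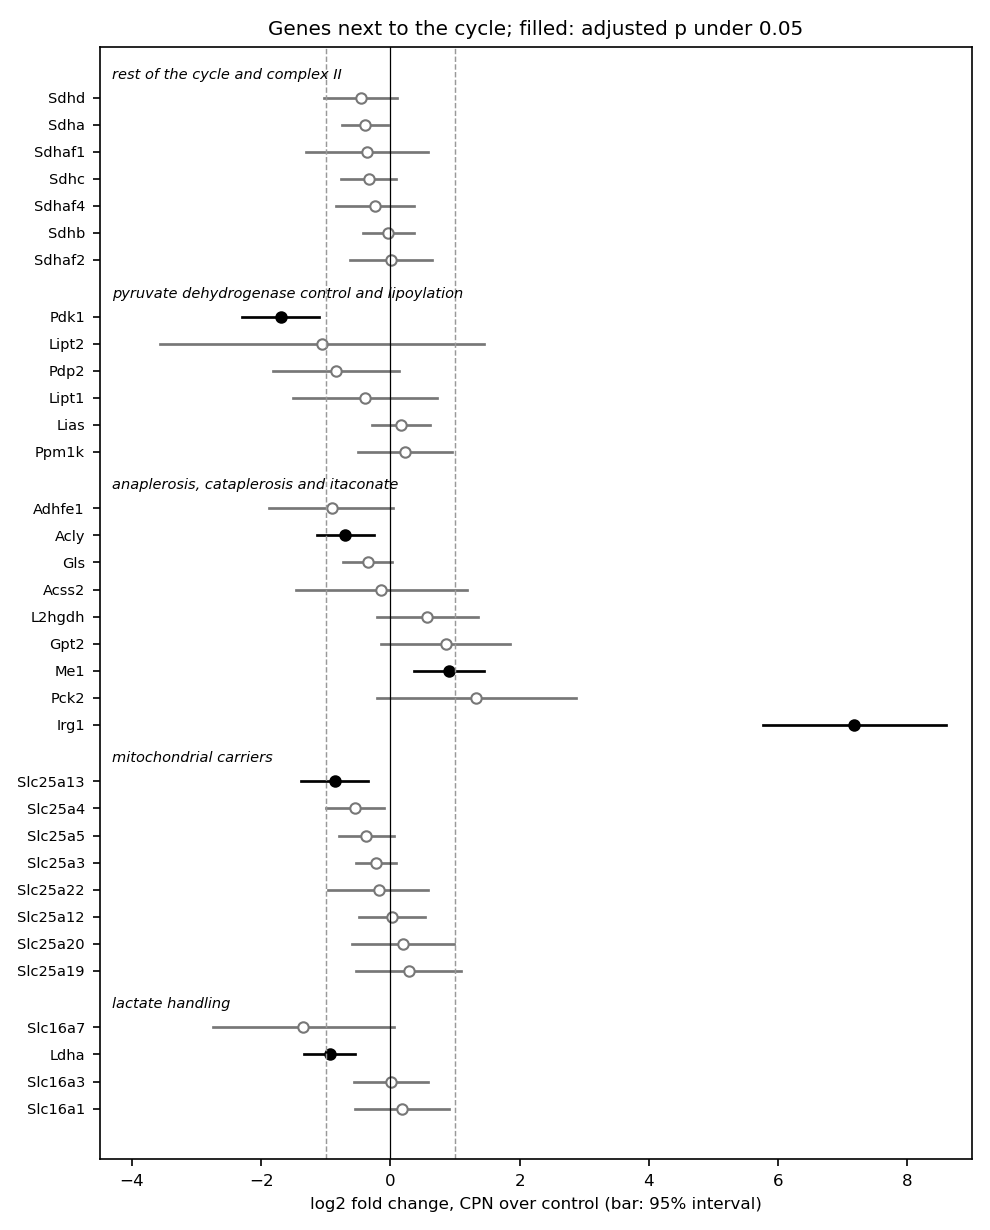
Log2 fold change (CPN over control) with its 95% interval for the 34 tested and reported genes of the 5 lists around the cycle; dashed lines mark a 2-fold change and filled points passed an adjusted p of 0.05. Irg1 at 7.18 stands apart from all others, Me1 is the other filled point above 0, and Pdk1, Ldha, Slc25a13 and Acly are filled below 0.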

How the data were processed

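Total RNA, extracted with TRIzol, went into QuantSeq libraries, which sequence the 3′ ends of transcripts, per the labels' protocols. The authors deposited 1 table of raw counts per gene for each of the 6 samples. Per the submitters' processing notes, Bowtie2, bedtools and build mm10 were used, without versions. The annotation, strand use and the handling of multiply aligned or duplicate reads were not stated in these sources. Of the 33 genes, 8 overlap another measured gene, and how reads shared with processed pseudogenes were counted is not known.

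The count test was edgeR 4.0.16 under R 4.3.3: TMM scaling, filterByExpr (minimum count 10, minimum total 15), the quasi-likelihood test with p-values adjusted by Benjamini-Hochberg across the 11092 genes; a gene passed below 0.05. All 33 genes passed the filter. The SE is the size of the log2 fold change divided by the square root of F, and the 95% interval uses the test's t distribution. The rule for naming genes took every member and, in each list of pathway neighbours, up to 3 genes with the smallest p. Members, lists and rules were chosen with earlier results of these data known. Overlaps are from GENCODE M21 and promoters from RefSeq, both on GRCm38. Log2 ratios within a library used counts plus 0.5. Protein sequences were not used here. Some genes of the lists are not reported here. Alternatives were DESeq2 1.42.0, limma-voom (limma 3.58.1), other scalings and filters, Rn45s removed, a null fold of 1.5, a replicate block and libraries left out. The code was tested on simulated counts.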

Additional observations from a re-analysis of the deposited data

How the results depend on the processing

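DESeq2-type size factors, DESeq2, limma-voom, no low-count filter, a minimum count of 50 and removal of Rn45s each passed Fh1 alone among the members. The minimum count of 50 removed Pcx and Pdk2 and left 31. Over all genes, DESeq2-type size factors passed 857 higher and 704 lower of 11092, and DESeq2 1067 and 897 of 14630. Limma-voom passed 936 higher and 738 lower of 11092, and no filter 1046 and 874 of 14630. The minimum count of 50 passed 815 higher and 715 lower of 9403, and removal of Rn45s 854 and 706 of 11091. Library totals alone passed 3 members, all lower, and the null fold of 1.5, or leaving out control 3 and CPN 1 together, passed 0. Leaving out any 1 library gave 0 to 4 members lower and 0 to 2 higher, with a median log2 fold change between -0.31 and -0.09. Over all genes the null fold of 1.5 passed 424 higher and 273 lower. Leaving out control 3 and CPN 1 passed 273 higher and 173 lower of 11232 tested genes. Leaving out 1 library gave 525 to 1131 higher and 359 to 823 lower, of 11443 to 11490 tested genes. Library totals alone made 43% of all calls higher, against 54.4%.

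The counts given here for the lists around the cycle cover every listed gene that could be tested, including those not reported. They are thus not counts over the reported genes alone. The null fold of 1.5 passed 0 lower genes in the rest of the cycle, in the carriers and in lactate handling. In anaplerosis it passed 1 higher and 0 lower. Without control 3 and CPN 1, these counts were 0 lower in all 5 lists, pyruvate dehydrogenase control included, and 1 higher in anaplerosis. Library totals alone, or no filter, passed 2 carriers lower, and no filter passed 4 genes higher in anaplerosis. When 1 library was left out, the lower calls ranged from 0 to 2 in the rest of the cycle, 1 to 2 in pyruvate dehydrogenase control, 0 to 1 in anaplerosis and 0 to 2 in the carriers, and the higher calls in anaplerosis from 1 to 4. The causes were not tested.

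Same-numbered CPN and control libraries did not deviate together (correlations across genes of -0.051, 0.02 and 0.028). With the replicate block 748 genes were higher and 578 lower, of 11092 tested. Among the members Fh1 still passed alone. Over all genes of their lists, reported or not, 0 were lower in the rest of the cycle and 0 in anaplerosis.

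Of 526 values of the 33 genes under these alternatives, 494 kept direction and side of the threshold, 4 were weaker, 7 stronger and 21 reversed. The reversals touched 10 genes, none of which passed with all libraries. With library totals alone Sucla2 was -0.06 and Dlat -0.12, and without control 3 and CPN 1 Idh1 was 0.11. Leaving out 1 library gave ranges of -0.47 to 0.09 for Aco1, -0.25 to 0.02 for Idh1, -0.34 to 0.04 for Idh3b, -0.21 to 0.07 for Ogdh, -0.16 to 0.04 for Suclg1, -0.23 to 0.21 for Sucla2, -0.24 to 0.05 for Pdha1, -0.05 to 0.12 for Dlat, -0.09 to 1.41 for Pdp1, -2.01 to 0.19 for Pdk2 and -0.17 to 0.41 for Slc16a1. The log2 ratio of Pdk3 to Pdk2, CPN minus control, ranged from -0.26 (without CPN 2) to 2.17. A pseudocount of 2 reversed no ratio. Depth limits Pdk2 and Pcx, and sparse counts carry more than counting error.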

Other observations

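Several genes of the lists around the cycle had a control 2 value unlike both other controls, and are named here after their values were seen. Pck2, the mitochondrial enzyme that makes phosphoenolpyruvate from oxaloacetate, had 133, 107 and 108 CPM in CPN cells, against 8.34, 119 and 11.0 CPM in control 1 to 3. Gpt2, the mitochondrial alanine aminotransferase, had 78.0, 39.2 and 44.0 CPM in CPN cells, against 23.5, 54.6 and 11.0 CPM in control cells. In both genes control 2 lay within the CPN range while the other controls lay below it, as for Got1. By the edgeR test used above, with all libraries, neither passed (adjusted p = 0.268 and 0.267). Over all genes of their list, anaplerosis, 2 were higher by that test. With limma-voom or the replicate block 3 were higher, and with no low-count filter or without control 2 there were 4. Whether Pck2 or Gpt2 was among the genes added is not given here. Slc16a1 went the other way, with 30.9 CPM in control 2, against 92.7 and 90.7 CPM in the other controls and 93.6, 73.1 and 75.8 CPM in CPN cells.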
